A study of Mus musculus with 8 samples.

Results

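Heat shock proteins and related chaperones were examined in leukaemia stem cells with and without Pik3ca. The group comprised the genes whose annotated symbol marks them as HSP90, HSP70, HSP110, HSP60, HSP10 or small heat shock proteins, as J-domain proteins (DNAJ) or as subunits of the cytosolic chaperonin TRiC. The endoplasmic reticulum stress genes Hspa5, Hsp90b1, Dnajb9, Dnajb11 and Dnajc3 were left out. By this rule 74 of 19505 named genes were members, each with 1 row in the table, so no choice between rows was needed. A row was tested where its value exceeded the array's median row on 3 or more of the 8 arrays, and 52 of the 74 members met this. The rule works on symbols and not on location, and it also takes in mitochondrial members (Hspa9, Hspd1, Hspe1), J proteins of the endoplasmic reticulum membrane (Dnajb12, Dnajb14) and some proteins that only share the name. Hspa8, Hsp90ab1, Dnaja1 and Cct6a, all abundant in most cells, were not analysed here.

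The samples were granulocyte-macrophage progenitors (GMPs), sorted by GFP, that carried the MLL-AF9 fusion oncogene, which makes such progenitors leukaemic. They came from the marrow of mice that had received a transplant. There were 3 arrays of Pik3ca-/- cells (KO) and 5 arrays of wild-type cells (WT), and both groups carried MLL-AF9. Pik3ca encodes p110-alpha, a catalytic subunit of the kinase PI3K. The labels do not give the driver of the deletion, the deleted part of the gene, the age of the mice or the time after transplantation. Whether each array stands for its own mouse is also not stated, and the p-values then reflect only variation among these samples, which may be technical.

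HSP70 proteins bind and release unfolded stretches of other proteins in a cycle driven by ATP. J-domain proteins bring clients to HSP70 and start its ATPase, and nucleotide exchange factors, HSP110 among them, reset it. HSP90 acts later on kinases and receptors, AKT being a well-known client, and TRiC folds actin, tubulin and other proteins inside a closed double ring. Under proteotoxic stress the factor HSF1 binds heat shock elements, repeats of the unit NGAAN, and induces many of these genes.

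All values are deposited log2 values, a microarray signal on a log scale, so that a difference of 1 is a doubling. Array medians lay between 5.26 and 5.51, and values of different genes are not comparable as amounts. All 10 markers fixed for GMPs, such as Mpo and Elane, were above the median row on all 8 arrays. That level does not single out GMPs. It was exceeded on 3 or more arrays by all 10 maturing neutrophil markers and by 9 of 10 monocyte and macrophage markers. Of the GMP marker differences between KO and WT, 6 were above 0 and 4 below. The GMP marker Cd34 was 5.63, 7.81 and 7.42 in KO and 9.49, 7.24, 10.94, 9.08 and 8.01 in WT. Of 7 B cell markers 2 were above the median row on all arrays (Cd79b and Vpreb1) and 3 on 0 arrays. Of 8 T and NK cell markers 2 were above it on all arrays (Cd4 and Nkg7) and 4 on 0 arrays. WT array 3 stood apart, with a mean correlation with the other arrays of 0.921 across genes, against 0.968 to 0.972 elsewhere. On that array 22.5% of all tested genes were lower by more than 1 log2 unit than the remaining WT arrays on average. Results are therefore given with and without it. In a bulk sample, fewer cells of a type and less RNA per cell cannot be told apart.

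No member differed between KO and WT by the test. In limma, fitted on all 9920 tested genes with Benjamini-Hochberg adjustment, 0 of the 52 tested members had an adjusted p under 0.05, and the background was 0%. The smallest adjusted p of a member was 0.998 over the 8 arrays and 0.989 once WT array 3 was left out. At an unadjusted p under 0.05 there was 1 member, Hspb6, or 1.92% of those tested, against 2.84% of all genes. Hspb6 was lower in KO, as were 1.37% of all genes at that p, while 1.47% were higher. For 1 member, Cct2, every KO array lay on one side of every WT array, again 1.92%, against 3.09% of all genes, of which 1.58% were higher and 1.51% lower in KO. With 1 gene each, both shares of members were near the background. Without WT array 3 the same 2 members stood out. Hspb6 was then 1 of 52 against 4.68% of all genes (2.22% higher, 2.46% lower), and Cct2 was 1 of 52 against 5.55% (2.62% higher, 2.93% lower).

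The members as a group had a median difference close to that of the rest of the array. Of the 52, 32 had a difference above 0 and 20 below, which is 38.5% below 0 against 44.0% of all genes. The median difference, KO minus WT, was 0.06 with quartiles of -0.09 and 0.39. Over all tested genes it was 0.04 with quartiles of -0.16 and 0.26, so the upper quartile of the members was higher. Without WT array 3 the median of the members was -0.03, with 29 of 52 below 0, or 55.8%, against 49.9% of all genes. The median size of a difference regardless of sign was 0.22 for members and 0.209 for all genes. Its median standard error was 0.294 for the members and 0.311 for all genes.

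**Figure D1:**
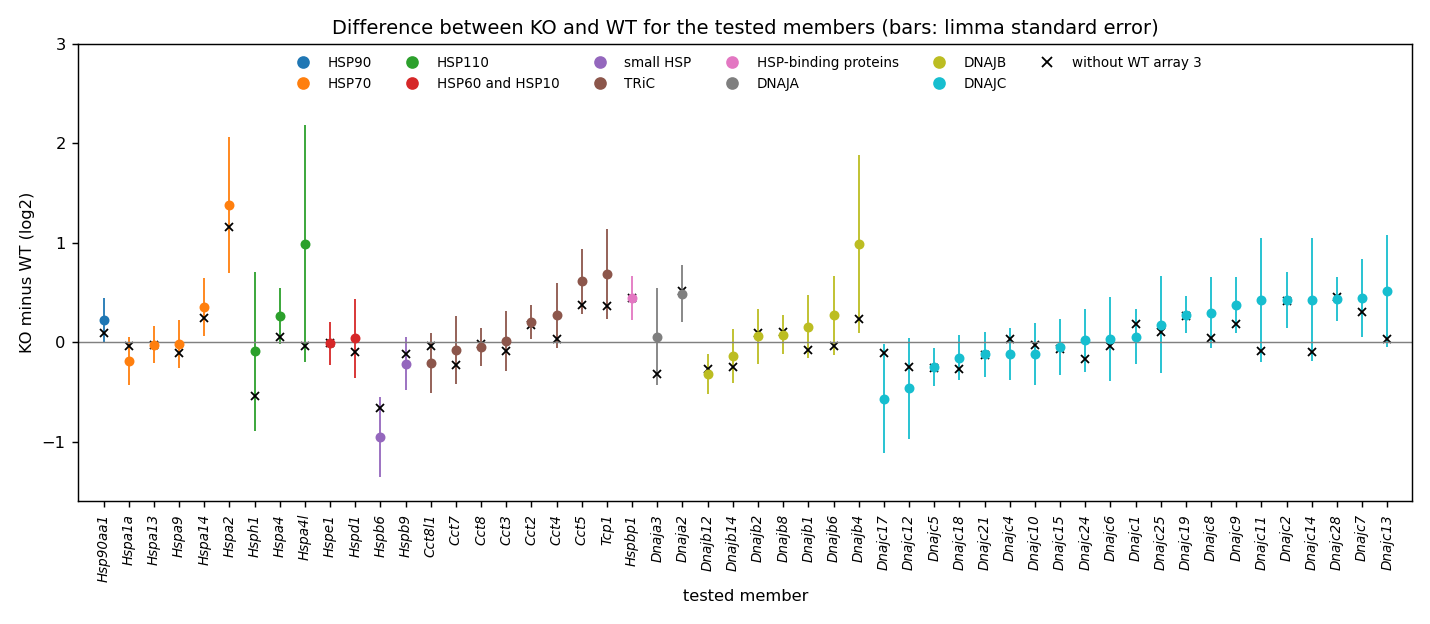
Difference between KO and WT (y axis, log2) for the 52 tested members (x axis), coloured by family, with bars for the limma standard error and crosses for the value without WT array 3. Most points lie within 0.5 of 0, and for Hspa4l, Dnajb4 and several DNAJC genes the cross lies far below the point.

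Among the HSP90 and HSP70 genes, the ATP-driven core of the system, Hsp90aa1 was nearly level. This gene of the inducible cytosolic HSP90 was 16.14, 16.19 and 16.09 in KO and 16.11, 16.05, 15.39, 15.92 and 16.12 in WT. The lowest array was WT array 3, and KO and WT overlapped. The difference was 0.22 with a standard error of 0.22, and 0.09 without WT array 3.

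Hspa2, an HSP70 gene best known for its need in male meiosis, had the largest difference of any tested member. It was 14.51, 13.39 and 12.15 in KO and 12.06, 13.22, 11.08, 10.71 and 12.80 in WT. KO array 1 held the highest value, WT arrays 3 and 4 the lowest, and KO array 3 lay inside the WT range. The means were 13.35 ± 1.18 (SD, n = 3) in KO and 11.97 ± 1.07 (SD, n = 5) for WT, which differ by 1.38 with a standard error of 0.68. The exact two-sided permutation p over 56 splits was 0.125, and limma gave an unadjusted p of 0.0742. This gene was among the 5 members with the largest spread within groups, and the difference ran from 0.80 without KO array 1 to 1.98 without KO array 3.

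The stress-inducible HSP70 gene Hspa1a had a low signal throughout, though above the median row on all 8 arrays. Its values were 6.09, 5.89 and 5.81 in KO and 5.82, 5.99, 6.71, 6.12 and 5.93 in WT, where WT array 3 was the highest of all. Its difference was -0.19, and -0.04 without that array. Hspa1b, a near-identical copy, exceeded the median row on 2 arrays and was not tested, and probes of such a pair may share transcripts, so both values are uncertain. WT array 3 was also the highest array for Hspa1b, at 5.62.

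Of the remaining HSP70 genes, Hspa9 and Hspa13 were near level. Hspa9, which encodes the mitochondrial HSP70 mortalin, was 10.72 ± 0.27 (SD, n = 3) in KO, and the WT mean was 10.74 ± 0.31 (SD, n = 5). Hspa13, a microsomal HSP70, was between 6.95 and 7.03 in KO and between 6.81 and 7.25 in WT. Hspa14 encodes the HSP70 of the ribosome-associated complex, whose J protein is Dnajc2. The former differed by 0.36 and the latter by 0.43, with standard errors of 0.29 and 0.28. Dnajc2 was 13.19, 13.14 and 12.85 in KO and 13.29, 12.63, 12.59, 12.05 and 12.63 in WT, so its top value was in WT array 1. Over the 5 tested HSP70 genes, 2 differences were above 0 and 3 below, with a median of -0.02.

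Of the HSP110 genes, exchange factors that reset HSP70, Hspa4l and Hsph1 were among the 5 members with the largest spread within groups, and Hspa4 was not. Hspa4 was 13.96, 13.92 and 13.96 in KO and 13.95, 13.86, 12.85, 13.91 and 13.85 in WT. Apart from WT array 3 these 7 values lay within a narrow band, and the difference of 0.26 fell to 0.05 without that array. Hspa4l, a relative that is also abundant in testis, was 8.41, 8.02 and 8.68 in KO and 8.17, 8.39, 3.27, 7.51 and 9.54 in WT. The value on WT array 3 was 5.13 log2 units under the average of the remaining WT arrays, the widest such gap of any tested member. It differed by 0.99 over the 8 arrays and by -0.03 once WT array 3 was left out.

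Hsph1, the stress-inducible HSP110 gene, was scattered in KO. It was 7.16, 10.64 and 8.76 in KO and 9.39, 9.66, 7.14, 8.99 and 9.51 in WT. KO array 1 and WT array 3 were both low, KO array 2 was the highest of the 8, and the other 4 WT arrays agreed within 0.28 (SD, n = 4). The means of 8.85 ± 1.74 (SD, n = 3) and 8.94 ± 1.03 (SD, n = 5) differed by -0.09, by 0.76 without KO array 1 and by -0.98 without KO array 2. No direction can be read for this gene.

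**Figure D2:**
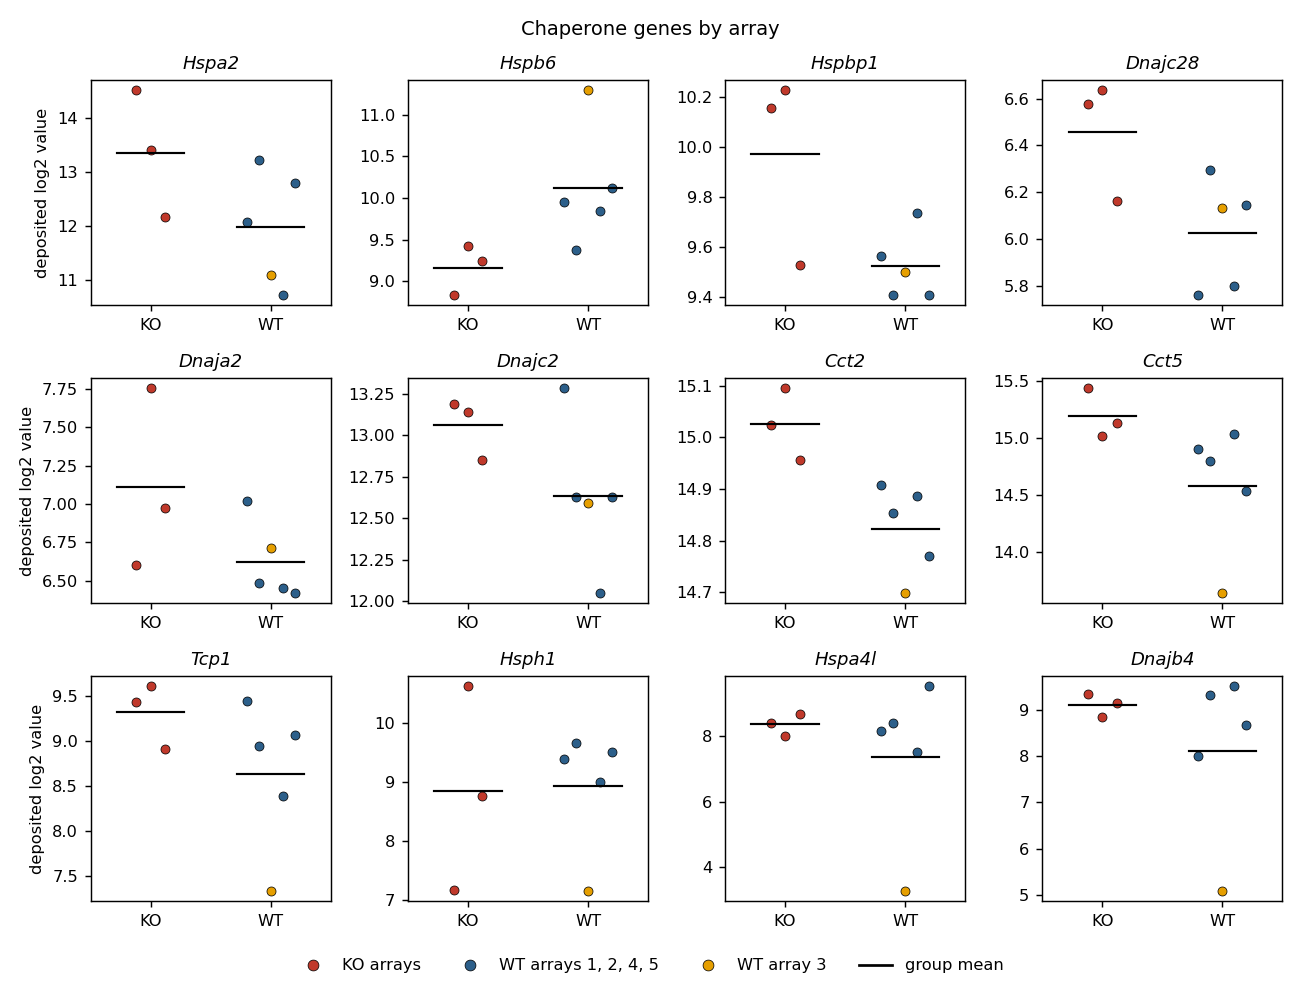
Deposited log2 values (y axis, a separate range in each panel) of 12 members by group (x axis). Points are arrays, with WT array 3 in orange, and lines are group means. KO and WT points separate only for Cct2, and WT array 3 is the lowest point for Cct2, Cct5, Tcp1, Hsph1, Hspa4l and Dnajb4.

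Hspd1 and Hspe1, which encode the mitochondrial chaperonin HSP60 and its lid HSP10, are transcribed in opposite directions from neighbouring start sites. The stretch between those starts is shown because both genes share it and it holds overlapping heat shock elements. It is RefSeq sequence of GRCm38.p6, chr1:55087933-55088147, plus strand, which reads towards Hspe1, and capitals mark the heat shock elements. A second annotated Hspd1 start, at 55088243, lies beyond the Hspe1 start at 55088148.
Hspd1-Hspe1: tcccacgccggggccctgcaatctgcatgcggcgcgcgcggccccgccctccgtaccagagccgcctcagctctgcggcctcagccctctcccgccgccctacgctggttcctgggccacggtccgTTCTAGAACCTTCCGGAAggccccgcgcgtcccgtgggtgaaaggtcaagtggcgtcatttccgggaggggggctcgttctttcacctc

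The element searched was GAA, NN, TTC, NN and GAA in a row, or its reverse complement TTC, NN, GAA, NN and TTC, where N is any base. Both strands were covered and matches may overlap. The window ran from 250 bases before to 50 bases after each RefSeq start. Such a match was present for 4 of the 61 members that had a window, or 6.56%, against 0.662% of 27025 genes with one. These members were Hspd1, Hspe1, Dnajb6 and Hsph1, and the same site was counted for both Hspd1 and Hspe1. In the shared stretch 2 overlapping matches span 18 bases, beginning at base -89 from the Hspe1 start and 127 bases from the Hspd1 start. A match describes the sequence and does not show that HSF1 binds there.

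The 2 other members with a match are printed to show the same element at a different distance from the start. The Dnajb6 stretch is chr5:29735844-29735872 on the plus strand, with the match beginning at base -46 or -127 from its annotated starts. The Hsph1 stretch is chr5:149636280-149636308 on the minus strand, with the match at base 16 or 37 of the transcript. Chordc1, an HSP90 co-chaperone gene outside the members, is added because 3 matches overlap at its start, in chr9:18292260-18292288 on the plus strand.
Dnajb6: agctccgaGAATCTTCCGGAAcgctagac
Hsph1: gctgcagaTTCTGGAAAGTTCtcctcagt
Chordc1: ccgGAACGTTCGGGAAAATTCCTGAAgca

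The genes of the shared stretch did not track each other on every array. Hspd1 was 10.34, 10.35 and 8.71 in KO and 10.05, 9.74, 9.23, 9.83 and 9.96 in WT. Hspe1 was 10.23, 10.79 and 10.82 in KO and 10.44, 10.56, 10.63, 10.88 and 10.62 in WT. KO array 3 thus held the lowest Hspd1 value and the second highest Hspe1 value of the 8 arrays. The difference was 0.04 for Hspd1, with a standard error of 0.40, and -0.01 for Hspe1, with a standard error of 0.22. Without KO array 3 Hspd1 differed by 0.59, and without KO array 2 by -0.24.

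The differences of Dnajb6 and Chordc1, which also hold this element, were smaller without WT array 3. Dnajb6, whose protein restrains aggregation, was 11.61, 11.55 and 11.11 in KO and 11.60, 11.51, 9.90, 11.16 and 11.59 in WT, and differed by 0.27, or by -0.04 without WT array 3. Chordc1 differed by 0.42, and by 0.17 without that array. Over a list of 23 HSF1 target genes, which includes members, 14 were tested and 0 passed. Their median difference was 0.12, with 11 above 0, and without WT array 3 it was -0.01, with 6 above 0. Among all 9920 tested genes 5553 were above 0, and 4966 without that array. In this list the median shift of WT array 3 was -0.69, against -0.15 over all tested genes.

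Small heat shock proteins hold unfolding proteins without using ATP. Only Hspb6 and Hspb9 of the 8 genes placed here by their symbol were bright enough to test. Hspb6, the gene of the muscle-enriched HSP20, was 8.83, 9.42 and 9.24 in KO and 9.96, 9.37, 11.29, 9.85 and 10.11 in WT. All KO arrays lay below 4 of the WT arrays, while WT array 2 fell between KO arrays 2 and 3. The means were 9.16 ± 0.30 (SD, n = 3) in KO and 10.12 ± 0.71 (SD, n = 5) for WT, which differ by -0.95 with a standard error of 0.40. Limma gave an unadjusted p of 0.0406 and an adjusted p of 0.998, and the exact permutation p was 0.0893. WT array 3 was the highest, and without it the difference was -0.66, with a limma unadjusted p of 0.022 and an adjusted p of 0.989. Hspb9, mainly a testis gene, was dim and differed by -0.21.

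TRiC is built from 8 different subunits, and 7 of their genes were tested here. Cct2 was the member whose groups did not overlap, at 15.02, 15.10 and 14.96 in KO and 14.91, 14.85, 14.70, 14.89 and 14.77 in WT. Every KO array was above every WT array, by 0.20 between means with a standard error of 0.17. The means were 15.03 ± 0.07 (SD, n = 3) and 14.82 ± 0.09 (SD, n = 5). Over the 56 possible splits the exact two-sided permutation test gave 0.0179, its lower limit, and 74 members were tested this way. Limma, which draws each gene's variance towards that of the others, gave an unadjusted p of 0.271. Of all tested genes, 1.58% lay above WT in this way, and among the members the share was 1.92%.

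Cct5 and Tcp1 had the larger TRiC differences. Cct5 was 15.44, 15.01 and 15.13 in KO and 14.90, 14.80, 13.64, 15.03 and 14.54 in WT, so that only WT array 4 reached the KO range. The difference was 0.61 with a standard error of 0.33, and 0.38 without WT array 3, with limma unadjusted p of 0.0928 and 0.0809. Tcp1, the gene of subunit CCT1, was 9.44, 9.61 and 8.92 in KO and 9.45, 8.95, 7.33, 8.39 and 9.07 in WT. It differed by 0.69, and by 0.36 without WT array 3, and the groups overlapped.

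The other subunits had differences between -0.08 and 0.27, and differences between subunits were not tested. Cct4 was 9.16 ± 0.20 (SD, n = 3) in KO against 8.89 ± 0.56 (SD, n = 5) for WT. Its difference of 0.27 fell to 0.03 without WT array 3. Cct3 differed by 0.01, Cct7 by -0.08 and Cct8 by -0.04, each with a standard error of at least 0.19. Cct3 and Cct7 were both highest in KO array 2, at 9.96 and 8.95, and lowest in KO array 3, at 8.76 and 7.67. Cct8 was at 15.40 on WT array 3, above KO arrays 1 and 3, at 15.27 and 15.08. The TRiC-like gene Cct8l1 was dim and differed by -0.21. Over the 8 tested genes named for TRiC, the median difference was 0.11, and 0.00 without WT array 3.

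Prefoldin hands nascent actin and tubulin to TRiC, and the tubulin cofactors act after it. Of 14 genes of these kinds, all 14 were tested and 0 passed, with 11 above 0 and a median of 0.13. Among all tested genes 5553 of 9920 were above 0. The median was again 0.13 without WT array 3, which had a shift of only -0.02 in this list. Vbp1, a prefoldin subunit gene, differed by 0.40, Pfdn4 by 0.32, Txndc9, a TRiC regulator gene, by 0.26 and Tbcb, a tubulin cofactor gene, by -0.20. The standard errors were 0.40, 0.22, 0.25 and 0.21.

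**Figure D3:**
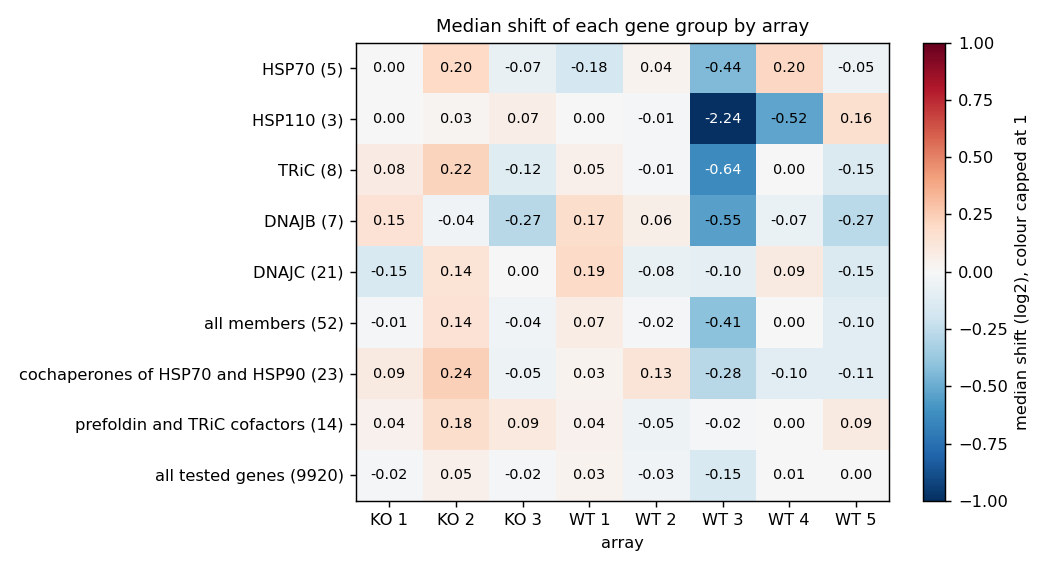
Median shift (log2) of 5 member families, all members, 2 lists of partners and all tested genes (rows, with the number of tested genes) on each array (columns), measured against the mean of WT arrays 1, 2, 4 and 5, or of the other 3 of them when the array is one of these. WT array 3 is at -2.24 for HSP110 and -0.64 for TRiC, against -0.15 for all tested genes, while the KO arrays lie between -0.27 and 0.24 in these groups, which leave out families with 1 or 2 tested genes.

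Class A and B J proteins are the general partners of HSP70. Dnajb1, the main stress-inducible one, was 12.75, 12.76 and 12.83 in KO and 12.88, 13.10, 11.68, 12.73 and 12.74 in WT. Apart from WT array 3 the groups overlapped closely, and the difference of 0.16 turned to -0.08 without it. Dnaja2, a constitutive cytosolic partner, was 6.60, 7.75 and 6.97 in KO and 7.02, 6.49, 6.72, 6.46 and 6.42 in WT, a difference of 0.49 that was 0.17 without KO array 2. Dnajb4 was 9.34, 8.83 and 9.14 in KO and 7.99, 9.31, 5.08, 9.52 and 8.67 in WT, and its difference of 0.99 became 0.23 without WT array 3.

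The membrane J proteins of the endoplasmic reticulum, Dnajb12 and Dnajb14, differed by -0.31 and -0.14. Dnajb12 was 9.89, 10.02 and 9.66 in KO and 10.26, 10.03, 10.34, 10.32 and 9.89 in WT. KO arrays 1 and 3 were below all WT arrays and KO array 2 was among them, with an exact permutation p of 0.0536 and a limma unadjusted p of 0.153. Dnajb8, mainly a testis gene, differed by 0.08, and Dnajb2, known from neurons, by 0.06. Dnaja3, the mitochondrial J protein gene, differed by 0.06, which turned to -0.32 when WT array 3 was left out. Among DNAJB genes as a whole 5 of 7 tested genes were above 0, and 3 of 7 without that array.

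Class C J proteins carry the J domain in otherwise unrelated proteins and direct HSP70 to single tasks. Of the 21 tested, 13 differences were above 0 and 8 below, with a median of 0.06 and a range of -0.57 to 0.51. Dnajc19, of the mitochondrial import motor, was 14.05, 13.94 and 14.19 in KO and 13.94, 13.90, 13.72, 13.79 and 13.57 in WT. Only WT array 1 reached the lowest KO value. The difference was 0.28 with a standard error of 0.19, with an exact permutation p of 0.0536 and a limma unadjusted p of 0.17. Dnajc28 was 6.58, 6.64 and 6.16 in KO and 5.76, 6.30, 6.13, 5.80 and 6.15 in WT, where KO array 3 lay inside the WT range. It differed by 0.43, and by 0.46 without WT array 3, with limma unadjusted p of 0.081 and 0.0606.

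Several class C differences rested on WT array 3. Dnajc13, which acts on endosomes, differed by 0.51, Dnajc14 by 0.43 and Dnajc11, of the mitochondrial inner membrane organisation, by 0.42. Without that array they were at 0.03, -0.10 and -0.09. Dnajc17, linked to splicing, went the other way, at 11.50 on WT array 3 and 9.07 to 9.47 on the other WT arrays. Its difference of -0.57 was -0.11 without it. Dnajc9, a histone co-chaperone gene, differed by 0.38 and by 0.19 without that array, and Dnajc8, a spliceosome gene, by 0.30 and 0.04.

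The remaining class C genes lay on both sides of 0. Dnajc7, a partner of HSP70 and HSP90, differed by 0.44 with a standard error of 0.39, Dnajc25 by 0.18, Dnajc1 by 0.06, Dnajc6, the clathrin uncoating factor auxilin, by 0.03 and Dnajc24, of diphthamide synthesis, by 0.02. Below 0 were Dnajc12 at -0.46, Dnajc5, of secretory vesicles, at -0.25, Dnajc18 at -0.15, Dnajc21, of ribosome maturation, at -0.12, Dnajc4 at -0.12, Dnajc10, a reductase of the endoplasmic reticulum, at -0.11 and Dnajc15 at -0.05. Sorted by place, 8 mitochondrial members had a median difference of 0.05 and 6 members of the endoplasmic reticulum one of -0.07. Without WT array 3 these medians were -0.08 and -0.03.

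**Figure D4:**
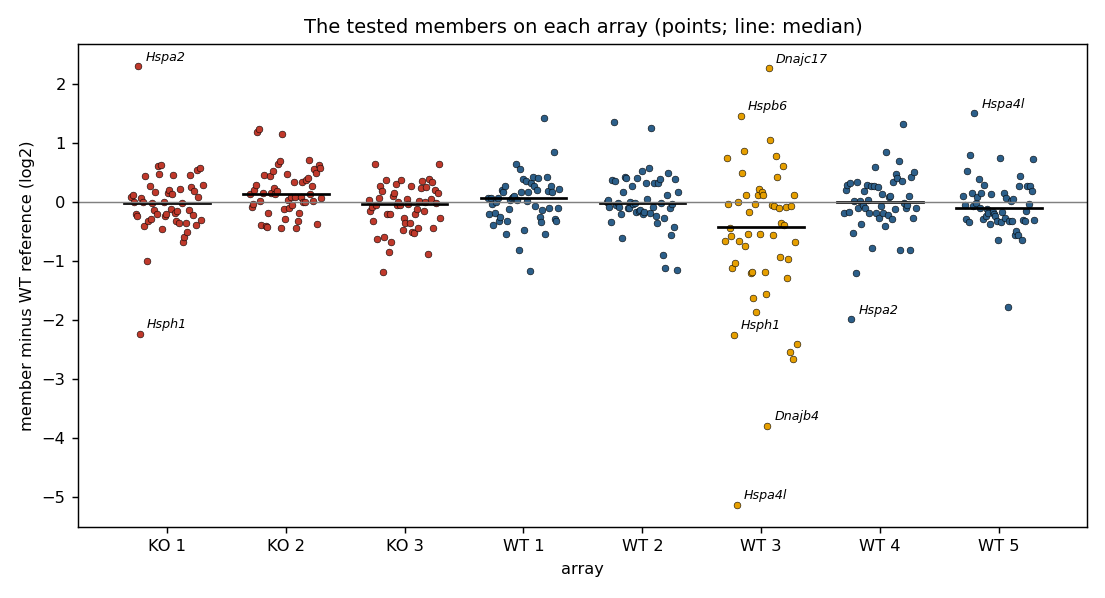
Each of the 52 tested members (points) on each array (x axis) as its log2 value minus the mean of WT arrays 1, 2, 4 and 5, the array itself left out (y axis), with the median as a line. Points of WT array 3 reach from -5.13 to 2.27 with a median of -0.41, while the other 7 medians lie between -0.10 and 0.14.

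Much of the spread among the members lay on WT array 3. That array held the lowest of the 8 values in 22 of 52 members, or 42.3%, against 36.5% of all tested genes. On it 15 members, or 28.8%, were more than 1 log2 unit below the other WT arrays, against 22.5% of all genes, and 3, or 5.77%, were as far above, against 9.77%. The median SD of a member in WT was 0.425 with this array and 0.263 without it. Of 8 members with a difference over 0.5 in size, 2 kept that size without it, Hspa2 and Hspb6, and the sign of 11 members, or 21.2%, changed, against 21.6% of all genes. On the same array the 2 tested B cell markers, Cd79b and Vpreb1, had a median shift of 1.46 and the 4 tested T and NK cell markers one of 1.19. Of the defining markers there, Cd3d was at 5.96, above the median row of 5.51. Cd3e at 3.87, Cd3g at 2.91, Cd79a at 4.37 and Pax5 at 4.32 were below it. Cd3d also exceeded the median row on KO arrays 1 and 3, at 5.44 and 6.03 against 5.43 and 5.47. The 4 tested megakaryocyte and platelet markers had a median shift of 2.89 on WT array 1 and 0.45 on WT array 3. The part of other cells in the chaperone values was not tested.

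Partners outside the members were read from lists. Of 23 tested co-chaperones of HSP70 and HSP90, 19 were above 0 with a median of 0.14, none called by limma. Without WT array 3 the median was 0.13 with 15 above 0. The background was 5553 of 9920 tested genes above 0, and 4966 without that array. Rpap3, whose protein joins HSP90 in the R2TP assembly complex, was 8.98, 8.79 and 8.61 in KO and 8.07, 8.32, 7.51, 7.39 and 8.41 in WT. Every KO array was above every WT array, which held for 1 of the 23 genes, against 1.58% of all tested genes. The difference was 0.85 with a standard error of 0.29, a limma unadjusted p of 0.0158 and an adjusted p of 0.998. Rpap3 had the smallest unadjusted p of this list, so it was picked for its value. St13, encoding the HSP70-interacting protein Hip, differed by 0.78, and by 0.56 without WT array 3. Fkbp4, an HSP90-binding immunophilin gene, differed by 0.49 and the phosphatase gene Ppp5c by 0.27. Without WT array 3, Rpap3, Ppp5c and Hikeshi of these 23 genes lay above every WT array left, against 2.62% of all tested genes.

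Among 8 tested nucleotide exchange factors, a list that leaves out the HSP110 genes given above, 0 passed and 5 were above 0. The median was 0.02, and again 0.02 without WT array 3. Hspbp1, which belongs to the members by its symbol, was 10.16, 10.23 and 9.53 in KO and 9.56, 9.41, 9.50, 9.74 and 9.41 in WT. KO arrays 1 and 2 were above all WT arrays and KO array 3 was among them. Its difference was 0.45 with a standard error of 0.22, an exact permutation p of 0.0536 and a limma unadjusted p of 0.0755. Bag5 differed by 0.22, Bag6 by -0.11 and Bag4 by -0.13, all smaller than their standard errors. Without WT array 3 these differences were 0.48, -0.16 and -0.14.

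Regulators of the heat shock response did not pass either. Of 6 tested, 3 were above 0, with a median of 0.06. Hsf2, a heat shock factor gene, was at 6.42, 7.03 and 4.32 in KO and 6.55, 7.79, 5.05, 7.68 and 5.48 in WT, with both groups scattered. Hsbp1, encoding a factor-binding protein, differed by -0.41, and by -0.06 without WT array 3, where it was 14.55. Sirt1 differed by 0.21 and Trim28 by 0.18, and Hsf1 was not analysed here. Immediate early genes, which respond to cell handling, had a median difference of 0.06 over 8 tested, with Junb at 0.41 and Zfp36 at -0.49 and 0 passing. For Junb, 1 of these 8, every KO array was above every WT array, against 1.58% of all tested genes. A difference in handling between the groups was not tested.

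The 22 members that were not tested were dim in both groups. Of these, 16 were above the median row on 0 arrays and 6 on 1 or 2 arrays, with values from 3.19 to 6.38. They were Hspa1b, Hspa1l, Hspa12a, Hspa12b, Hspb1, Hspb2, Hspb3, Hspb7, Hspb8, Hspb11, Hspbap1, Cct6b, Dnaja4, Dnajb3, Dnajb7, Dnajb13, Dnajc5b, Dnajc5g, Dnajc16, Dnajc22, Dnajc27 and Dnajc30. Many of them are known mainly from muscle, testis or brain, and of 14 members listed as tissue-restricted 4 were tested, Hspa2, Hspb6, Hspb9 and Dnajb8. The differences of the 22 untested members ran from -0.49 to 0.45. KO and WT separated in 0 of these 22, against 3.09% of all tested genes. Without WT array 3 they separated in Hspb8 alone, higher in KO by 0.39. Of all tested genes 5.55% then separated in either direction and 2.62% were higher in KO. Hspb8 was above the median row on 0 arrays, at 3.36 to 4.32. Both background shares come from genes that passed the filter on dim rows, so they are not matched to these 22.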

How the data were processed

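Gene expression was measured on 8 Affymetrix arrays, 3 KO and 5 WT, of RNA extracted with a small-sample kit and labelled with biotin, per the labels' protocols. The deposited table holds log2 values in 28846 rows. Which software, background correction, normalization and build produced them is not given in the labels used here. Log2 was read from the range of values, 1.89 to 18.6, so folds rest on that reading. Gene names came from the platform annotation, which is that of another Affymetrix mouse array than the design text names, so every name rests on the match of row identifiers to it, with 19572 rows named and 0 with several symbols, and 0 of the 74 member symbols differed from RefSeq's (GRCm38.p6). Rows above the array median on at least 3 arrays, 1 per symbol by highest mean, were tested with limma 3.58.1 in R 4.3.3 (lmFit, eBayes, two-sided, Benjamini-Hochberg over 9920 genes, threshold 0.05). The number of arrays limits the precision. Fits were tested on simulated data. Shifts take WT arrays 1, 2, 4 and 5 as reference. The smallest root mean square difference between arrays was 0.574, so no array was a duplicate. Members and lists were chosen with earlier results of these data known. Named members were a core list, the 10 with the smallest unadjusted p, those without overlap and the 5 with the largest spread, plus up to 4 genes of each list of partners. The other 26 tested members, Chordc1 for its sequence and Hikeshi for its lack of overlap were named after their values were seen. Alternatives were 2 filters on dim rows, quantile normalization, median centring, robust eBayes with trend, array weights, a replicate block, the row of largest variance and leaving out each array. Figures were drawn with matplotlib 3.10.9.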

Additional observations from a re-analysis of the deposited data

Results flagged for a closer look

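Among 34 values checked in the 5 WT arrays (28 named members and 6 group means), 10 had an array far from its nearest neighbour relative to the range, and all 10 were low values of WT array 3. For a single unselected value chance gives about 1 in 20, but these values were partly chosen for their spread and the group means share genes with them, so that rate does not apply to the count of 10. The members were Hspa4 at 12.9 against a next lowest WT value of 13.8, Hsph1 at 7.14 against 8.99, Dnajc11 at 6.18 against 8.31, Cct4 at 7.93 against 8.99, Dnajb1 at 11.7 against 12.7 and Hsp90aa1 at 15.4 against 15.9. The mean of all tested members was 9.27 against 9.80, that of HSP110 7.76 against 10.1, that of TRiC 10.2 against 10.7 and that of DNAJB 7.90 against 8.75. Without WT array 3 limma called 0 members, as with it.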

How the results depend on the processing

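In all 16 alternatives limma called 0 genes and 0 members. The median difference of the members, 0.06, ran from -0.04 to 0.19 when 1 array was left out, and was -0.01 with array weights, 0.17 with the stricter filter (60th percentile on 5 arrays) and 0.19 with the replicate block. The block left 0 calls, and same-numbered arrays did not deviate together, with correlations of 0.02, -0.02 and 0.14. Of 26 named tested members, 10 changed sign in some alternative, 0 of them among the 10 with the smallest p. With array weights Dnajb1 was -0.053, Hspd1 -0.019, Cct3 -0.065 and Dnajc11 -0.038. With quantile normalization Hspd1 was -0.024 and Cct3 -0.035. With the replicate block Hspa9 was 0.13, Hspe1 0.073 and Hsph1 0.12. Leaving out 1 array gave ranges of -0.13 to 0.047 for Cct8, -0.080 to 0.28 for Dnajb1, -0.17 to 0.10 for Hspa9, -0.11 to 0.18 for Hspe1, -0.24 to 0.59 for Hspd1, -0.30 to 0.31 for Cct3, -0.98 to 0.76 for Hsph1, -0.086 to 0.60 for Dnajc11, -0.41 to 0.23 for Cct7 and -0.034 to 1.53 for Hspa4l. The number of members at an unadjusted p under 0.05, 1 in the report, ran from 0 to 3 when 1 array was left out, and was 3 with array weights or no filter and 0 with quantile normalization. The cause of these changes was not tested.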
